A study of Homo sapiens with 12 samples.

Results

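HCT15 and HCT116 are human colorectal carcinoma lines, and their control cells were compared here gene by gene from poly(A)-selected RNA sequencing. A gene entered the comparison when its level was 1 TPM (transcripts per 1000000) or more in at least 3 of the 6 control libraries, which 14547 of the 63036 rows of the table did. The 12 libraries of the series form 4 groups of 3: HCT116_con and HCT15_con, the control cells, and HCT116_ov_RNF26 and HCT15_ov_RNF26, cells that overexpress RNF26, a ubiquitin ligase of the endoplasmic reticulum membrane. The labels do not say what the control cells received, how the overexpressing cells were made or whether the replicates of a group were separate cultures, and the p-values reflect the spread among the libraries alone, which may be technical. Cell line and anything else that differed between the cultures of the lines cannot be told apart. The series title ties RNF26 to growth, spread and the Wnt pathway, and this comparison asks how far the lines differ without added RNF26.

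Both lines lack normal DNA mismatch repair, the system that removes copying errors, and both have a defect in the control of beta-catenin. HCT116 has a mutant beta-catenin gene, whereas HCT15 has truncated APC and no functional MSH6. APC and beta-catenin act in the same pathway: the destruction complex, built on APC and AXIN proteins, marks beta-catenin for degradation, and beta-catenin that escapes it drives Wnt target genes with the TCF and LEF factors. HCT15 is also known for the drug efflux pump ABCB1. None of these alleles, nor DNA copy number, was read here.

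RNF26 itself measured 15.6, 18.4 and 16.5 TPM in the HCT116 controls and 26.7, 27.8 and 26.4 TPM in the HCT15 controls. The mean was 296 TPM in the overexpressing HCT116 cells and 54.2 TPM in the overexpressing HCT15 cells. Between 13633 and 13710 genes reached 1 TPM in an HCT116 control library and between 13983 and 14135 in an HCT15 control library. How many reads stand behind a value is unknown, because TPM carries no depth. Correlations of log2(TPM + 1) were 0.988 to 0.991 within the HCT116 controls, 0.972 to 0.982 within the HCT15 controls and 0.831 to 0.852 between them. Mitochondrial genes took 20.2 to 21.3% of the TPM total in HCT116, and 17.7, 16.4 and 25.9% in the HCT15 libraries. The third HCT15 control stood apart in that share, and also had the lowest share of ribosomal protein genes at 17.2%.

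The epithelial markers EPCAM, CDH1, KRT8 and KRT18 were present in both lines. EPCAM, an epithelial adhesion protein, measured 193, 206 and 194 TPM in HCT116 and 572, 546 and 548 TPM in HCT15. KRT8 measured 1437 TPM or more in every control library. The marker CDH17 measured 0.05 to 0.17 TPM in HCT116 and 2.85 to 3.59 TPM in HCT15, and LGALS4 stayed at 0.51 TPM or less throughout. Several colonic markers were near 0: the adhesion proteins CEACAM5 and CEACAM6 and the mucin MUC2 stayed under 0.1 TPM throughout, and villin, VIL1, was under 1 TPM in HCT116 only. Of 16 leukocyte markers 2 in HCT116 and 4 in HCT15 reached a mean of 1 TPM, with a summed level of 9.92 to 12.7 TPM and 16.8 to 25.8 TPM, and the defining PTPRC, CD3E and TYROBP were at 0 in all 6 libraries. Of 12 fibroblast markers 2 and 1 reached it (summed level 3.60 to 4.50 TPM and 7.56 to 8.04 TPM, with DCN, LUM, PDGFRA, POSTN and PDPN at 0). Of 11 endothelial markers 1 and 1 did (3.32 to 3.64 TPM and 5.30 to 6.52 TPM).

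In the control cells 10094 of the 14547 tested genes (69.4%) differed between the lines at an adjusted p under 0.05 by limma. Of these, 6394 (44%) were higher in HCT15 and 3700 (25.4%) were lower. A difference of at least 2-fold on the log2(TPM + 1) scale was called higher for 2638 genes (18.1%) and lower for 1532 (10.5%). For 10735 genes (73.8%) the 3 values of 1 line did not overlap the 3 of the other. The median of all tested genes was itself 0.22 higher in HCT15 on the log2 scale, and the balance of the calls depended on the scaling. With median-ratio scaling 5403 were higher and 4530 lower, and with quantile normalization 5006 and 4833. Calls of at least 2-fold moved as well, to 2133 higher and 1833 lower with median-ratio scaling and to 1933 and 1912 with quantile normalization. For this reason the medians of gene lists and chromosome arms are printed after subtracting that of all tested genes. Counts of list members read against 44% and 25.4%.

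**Figure D1:**
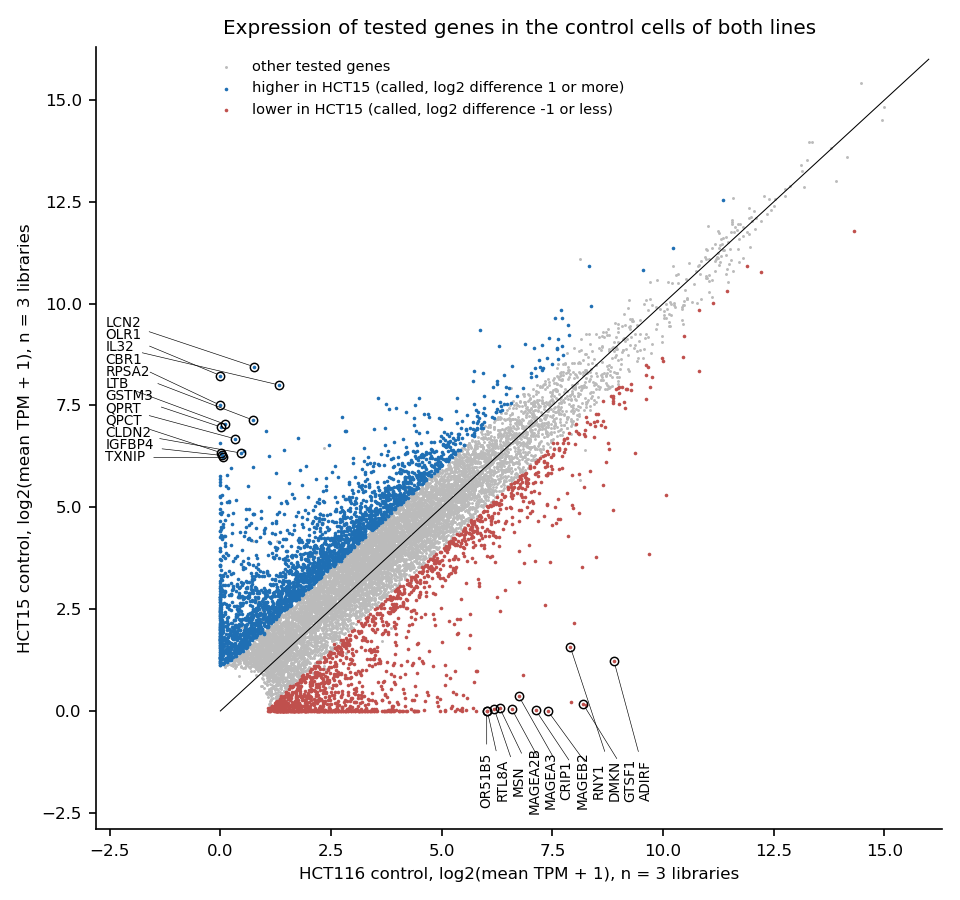
Mean level of each tested gene in HCT116 control cells (x axis) against HCT15 control cells (y axis), both as log2(mean TPM + 1) over 3 libraries, with genes of the largest rises and falls circled and named. The 2638 genes called higher by log2 of 1 or more lie above the diagonal of equality and the 1532 called lower lie under it, and the named genes sit close to 0 in 1 line.

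The 12 largest rises in HCT15 were led by OLR1, LCN2 and CBR1. OLR1, the receptor for oxidised low-density lipoprotein, was at 0 in the 3 HCT116 controls and measured 294, 306 and 301 TPM in HCT15. LCN2, which binds bacterial iron carriers, measured 0.34, 0.57 and 1.17 TPM in HCT116 and 343, 392 and 311 TPM in HCT15, a log2 difference of 7.71 (SE 0.184, adjusted p = 2.97e-07 by limma). CBR1, a carbonyl reductase, was at 0 in HCT116 and measured 191, 170.3 and 180.3 TPM in HCT15. For all 3 genes the lines were far apart relative to the spread within a line.

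LTB, the membrane anchor of the lymphotoxin cytokine, measured 0.03, 0.19 and 0 TPM in HCT116 and 127, 149.6 and 115 TPM in HCT15. IL32, a proinflammatory cytokine, measured 1.34, 1.70 and 1.52 TPM in HCT116 and 262, 280.2 and 223 TPM in HCT15, a mean level 168 times as high. GSTM3, a glutathione transferase, stood at 0.01 to 0.02 TPM against 97.7, 193 and 82.04 TPM, the second HCT15 library being the highest. The remaining 6 of the 12 largest rises were QPRT of NAD synthesis, the glutaminyl cyclase QPCT, the growth factor binding protein IGFBP4, the thioredoxin partner TXNIP, the pore-forming claudin CLDN2 and RPSA2, a copy of a ribosomal protein gene. Their log2 differences ran from 5.87 for CLDN2 to 6.35 for QPRT, with means under 1 TPM in HCT116. Reads of RPSA2 and of the GSTM genes can be split among near-identical relatives, so their levels are uncertain.

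The genes with the largest excess in HCT116 included germline and X-linked genes. GTSF1, a germline factor of the piRNA pathway, measured 295, 289 and 291 TPM in HCT116 and 0, 0 and 0.37 TPM in HCT15. ADIRF, a regulator of fat cell formation, measured 482, 487 and 454 TPM against 0.43, 0 and 3.54 TPM, a difference of -7.99 (SE 0.51, adjusted p = 1.64e-05). The rule for the largest rises and falls required that the lines not overlap. The third HCT15 library held most of the ADIRF signal of that line.

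MAGEB2, a melanoma antigen gene that is normally silent outside the testis, measured 143, 137 and 136 TPM in HCT116 and 0, 0.04 and 0 TPM in HCT15. Its relatives MAGEA3 and MAGEA2B had HCT116 means of 94.8 and 78.1 TPM and HCT15 means of 0.0333 and 0.06 TPM. MSN, moesin, which ties actin to the cell membrane, measured 75.05, 70.9 and 69.5 TPM against 0.02, 0.08 and 0 TPM. RNY1, a short noncoding RNA, varied within HCT116 (154, 87.4 and 261 TPM) and was at 0 in HCT15. How well poly(A) selection captures so short an RNA was not tested, so its level is uncertain. The other falls were CRIP1, DMKN, RTL8A and OR51B5, the last at 0 in HCT15, and the differences of the first 3 were -6.38, -6.33 and -6.03 on the log2(TPM + 1) scale.

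A gene was counted as line-restricted when it reached 5 TPM or more in all 3 control libraries of 1 line and stayed under 0.5 TPM in all 3 of the other. By this rule 115 genes were restricted to HCT15 and 157 to HCT116, of which 97 and 133 code for proteins. The median level in the own line was 12.9 TPM for the HCT15 set and 10.4 TPM for the HCT116 set. Since these genes were chosen by the control values, those values are a description and carry no test. Just outside the rule, 66 genes of HCT15 and 38 of HCT116 met the upper bound while the other line reached 0.5 to 1 TPM. The cells overexpressing RNF26, which share no library with the controls, met the same rule for 89 of the 115 genes (77.4%) and 132 of the 157 (84.1%).

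The 8 HCT15-restricted genes of the highest level were OLR1, CBR1, LTB, GSTM3, QPRT, QPCT and IGFBP4, described above, and ENSG00000288634, a locus without a symbol. That locus measured 148, 44.6 and 89.08 TPM in the HCT15 controls, but 0, 8.07 and 51.02 TPM in the overexpressing HCT15 cells and 31.1 TPM in 1 of the overexpressing HCT116 libraries, so it did not meet the rule there. Behind them came TXNIP, RPSAP15 (a pseudogene), PSMB8, PLBD1, PDZK1IP1, TMEM52B, SCCPDH and NNT. NNT, the mitochondrial enzyme that passes hydride between NADH and NADP, measured 0.1, 0.08 and 0.12 TPM in HCT116 and 42.5, 49.7 and 42.2 TPM in HCT15. SCCPDH, a probable dehydrogenase, was at 0 in HCT116 and measured 48.4, 46.6 and 41.2 TPM in HCT15. CA9, a carbonic anhydrase induced by low oxygen, stood at 0.2 to 0.35 TPM against 36.4, 41.7 and 27.2 TPM. NNT, SCCPDH and CA9 met the same rule in the overexpressing cells; NNT and SCCPDH were chosen for description after their values were seen.

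High among the HCT116-restricted genes were a locus without a symbol (ENSG00000289850, mean 303 TPM), GTSF1, RNY1, MAGEB2, CRIP1, MAGEA3 and MAGEA2B. Of the HCT116-restricted genes with a known position, 20 of 148 (13.5%) lay on the X chromosome, as did 5 of 111 (4.5%) of the HCT15-restricted genes and 3.04% of all tested genes. Besides the MAGE genes they included MSN, RTL8A and RTL8C, BEX2, TMSB15A, FHL1, SMARCA1 and MAOA. Other functions in the set were matrix (COL6A2, VCAN, COL12A1), lipid handling (ELOVL5, PLIN2, FABP6), the bile salt and drug pump ABCC2, the receptor kinase AXL and the stem cell marker PROM1. PROM1 measured 11.1, 9.19 and 10.96 TPM in HCT116 and 0.01, 0.07 and 0 TPM in HCT15.

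**Figure D2:**
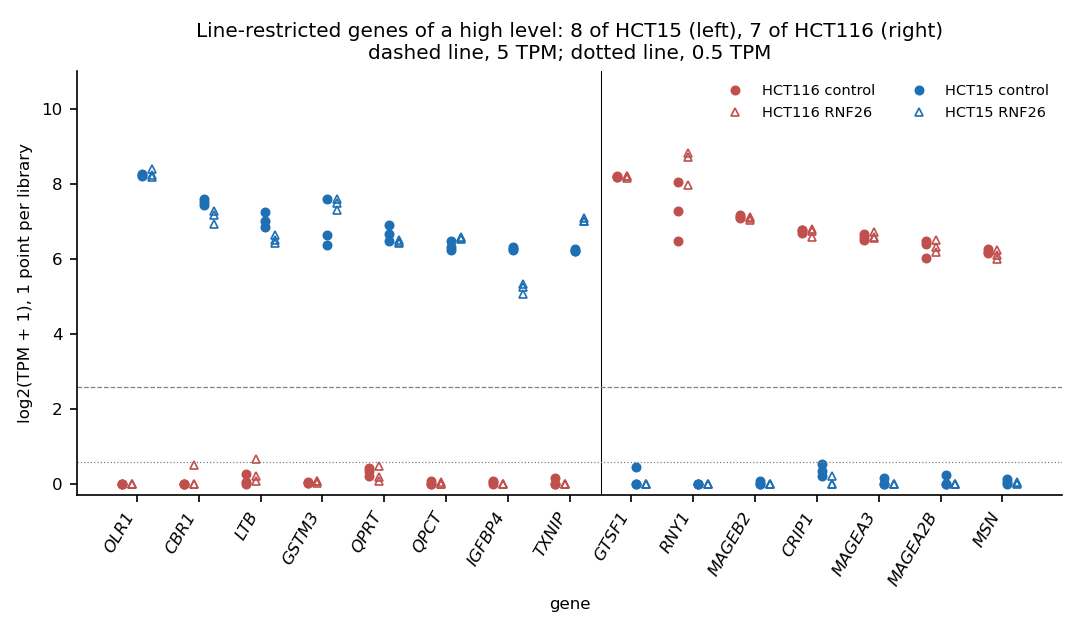
Levels of line-restricted genes of a high level in HCT15 (left) and HCT116 (right), as log2(TPM + 1) with 1 point per library; filled circles are control libraries and open triangles libraries of cells overexpressing RNF26, red for HCT116 and blue for HCT15. The dashed and dotted lines mark 5 and 0.5 TPM, and in the overexpressing cells every own-line point stays above 5 TPM, with IGFBP4 lower than in the controls, while 1 HCT116 point of LTB passes 0.5 TPM.

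Neighbouring genes were restricted to the same line in 5 runs of 3 or more genes spaced within 500 kb. Only 1 run belonged to HCT15: UBD, ZFP57 and TRIM31 in the major histocompatibility region of 6p (chr6:29555515-30113106), with means of 6.09, 37.1 and 7.39 TPM in HCT15. In HCT116 the run on Xq joined MAGEA3, CSAG2, MAGEA2B, MAGEA2 and CSAG3 (chrX:152698752-152760222). A run on 11p held HBE1, the embryonic globin, and the olfactory receptors OR51B4 and OR51B5 (chr11:5268345-5505652), with means of 32.6, 15.4 and 63.7 TPM in HCT116 and 0 in each HCT15 control. All 3 are annotated on the minus strand, and both receptors lie within the annotated span of HBE1, so the 3 values may not be independent. The others were C19orf81, KLK8 and CD33 on 19q and ENSG00000243501, KHDC1 and CD109 on 6q. ENSG00000243501 and KHDC1 overlap on the minus strand, so their values may not be independent either. Members of the Xq run are near-identical copies, and how reads were shared among them is not given.

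Promoters of line-restricted genes differed in CpG content, the density of the sites at which DNA can be methylated. In RefSeq windows of 300 bases (250 before to 50 after the start, GRCh38.p14) 15 or more CpG were present in 83.4% of the promoters of tested genes, in 34 of the 78 matched HCT15-restricted genes (43.6%) and in 71 of the 104 matched HCT116-restricted genes (68.3%). Over all promoters of the RefSeq table the share was 48.9%. The letters TATAAA occurred on either strand of 5.32% of tested, 6.41% of HCT15-restricted and 11.5% of HCT116-restricted promoters, and of 12% of all promoters. These shares are descriptions of the windows, and methylation was not measured. The windows of the 2 highest restricted genes of each line with an entry are printed 5′ to 3′, with each CG in capitals, to show the range. They are CBR1 (chr21:36069774-36070073, plus strand, 27 CpG) and LTB (chr6:31582376-31582675, minus strand, 2 CpG) for HCT15. For HCT116 they are GTSF1 (chr12:54473553-54473852, minus strand, 10 CpG) and MAGEB2 (chrX:30215313-30215612, plus strand, 21 CpG).
CBR1 promoter: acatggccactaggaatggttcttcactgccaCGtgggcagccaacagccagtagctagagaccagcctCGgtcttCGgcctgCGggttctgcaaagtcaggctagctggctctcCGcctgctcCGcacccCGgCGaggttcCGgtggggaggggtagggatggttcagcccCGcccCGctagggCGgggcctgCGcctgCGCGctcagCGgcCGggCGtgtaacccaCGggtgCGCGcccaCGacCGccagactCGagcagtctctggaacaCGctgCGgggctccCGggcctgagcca
LTB promoter: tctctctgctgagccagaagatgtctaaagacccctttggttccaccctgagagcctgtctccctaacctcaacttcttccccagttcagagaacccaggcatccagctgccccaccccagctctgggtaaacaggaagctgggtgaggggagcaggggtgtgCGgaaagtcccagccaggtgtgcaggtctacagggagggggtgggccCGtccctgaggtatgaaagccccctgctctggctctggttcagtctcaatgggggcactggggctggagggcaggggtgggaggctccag
GTSF1 promoter: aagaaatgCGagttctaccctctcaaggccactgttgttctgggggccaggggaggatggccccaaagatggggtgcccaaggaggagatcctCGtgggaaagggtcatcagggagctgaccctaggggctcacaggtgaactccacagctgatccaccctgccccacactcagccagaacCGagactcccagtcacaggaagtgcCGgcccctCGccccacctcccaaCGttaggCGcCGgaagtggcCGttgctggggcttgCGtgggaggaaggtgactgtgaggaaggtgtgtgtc
MAGEB2 promoter: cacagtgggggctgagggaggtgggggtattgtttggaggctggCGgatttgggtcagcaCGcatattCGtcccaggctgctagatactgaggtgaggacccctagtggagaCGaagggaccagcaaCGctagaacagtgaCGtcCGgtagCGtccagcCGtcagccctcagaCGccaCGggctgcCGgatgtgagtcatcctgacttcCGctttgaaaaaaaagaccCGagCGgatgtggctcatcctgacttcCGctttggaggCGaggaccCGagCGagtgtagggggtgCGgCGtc

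CBR1 and LTB were at or near 0 in HCT116, and their windows hold many and few CpG. MAGEB2 and GTSF1 were at or near 0 in HCT15, with CpG counts that lie between those. None of the 4 windows holds TATAAA on either strand.

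The functional lists were read next, starting with the pathway in which the lines carry different mutations. Of 30 Wnt feedback and target genes 25 were tested, of which 16 (64%) were higher in HCT15 and 4 (16%) lower, with a median 0.93 above that of all tested genes on the log2 scale. Among the 17 members with a mean of 1 TPM or more in both lines the counts were 10 and 2 and the median 0.26, so the larger value rested on genes near 0 in HCT116. LEF1, a DNA-binding partner of beta-catenin, was at 0 in HCT116 and measured 28.6, 23.8 and 31.1 TPM in HCT15. ASCL2, a factor of intestinal stem cells, measured 0.06, 0 and 0 TPM against 17.4, 21.8 and 16.2 TPM. AXIN2, which feeds back on beta-catenin, measured 3.11, 4.12 and 3.81 TPM against 38.2, 31.6 and 37.3 TPM, 9.70 times as high on average.

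Not all Wnt-linked genes followed. DKK1, a secreted inhibitor of Wnt receptors, was lower in HCT15 at 28.2, 32.05 and 24.2 TPM against 271, 269 and 274 TPM. The adhesion receptor CD44 was lower as well, at 22.7, 21.9 and 26.03 TPM against 179, 189 and 199.8 TPM. MYC had means of 144 TPM in HCT116 and 130.0 TPM in HCT15 (adjusted p = 0.215, though called lower with median-ratio scaling), and cyclin D1, CCND1, of 89.02 and 94.2 TPM (adjusted p = 0.476). LGR5, a stem cell receptor, was under 0.2 TPM in all 6 libraries.

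Of the pathway components, 16 of 33 tested (48.5%) were higher in HCT15 and 11 (33.3%) lower, with a median 0.11 above that of all genes. The scaffold AXIN1 measured 3.63, 4.28 and 3.79 TPM in HCT116 and 24.7, 23.4 and 28.1 TPM in HCT15 (log2 difference 2.43, adjusted p = 2.60e-06). The ligand WNT16 went the other way, at 41.6, 37.5 and 36.4 TPM against 0.61, 1.31 and 1.00 TPM. The mutant genes of this pathway, APC and the beta-catenin gene, differed less in level than AXIN1 and WNT16, and only the latter of them was called. APC had means of 6.34 ± 0.897 TPM (SD, n = 3) in HCT116 and 7.31 ± 2.39 TPM in HCT15 (adjusted p = 0.572 by limma), and CTNNB1, beta-catenin, of 210.1 and 162 TPM (log2 difference -0.37, adjusted p = 0.00151).

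The mismatch repair genes split by gene. MSH6, which takes part in the recognition of single-base mismatches, measured 56.1, 55.3 and 58.1 TPM in HCT116 and 6.96, 8.64 and 7.90 TPM in HCT15 (log2 difference -2.71, SE 0.0879, adjusted p = 8.63e-07 by limma). MSH3, which acts at longer loops, went the other way, at 1.25, 1.95 and 1.13 TPM against 13.8, 14.3 and 16.7 TPM.

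PMS2 differed less, with means of 14.8 and 21.8 TPM (log2 difference 0.53, adjusted p = 0.00134). The proofreading polymerase POLE had means of 21.4 and 11.6 TPM, and the sliding clamp PCNA of 514 and 249 TPM. In all, 7 of the 14 genes of the list were higher in HCT15 and 6 lower.

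Of 42 tested genes of a list on growth arrest, DNA damage and apoptosis 22 (52.4%) were lower in HCT15 and 13 (31%) higher, with a median 0.50 below that of all genes. CDKN1A, the p21 inhibitor of cyclin-dependent kinases, measured 145, 146 and 139.9 TPM in HCT116 and 23.4, 27.2 and 22.1 TPM in HCT15 (log2 difference -2.53, SE 0.087, adjusted p = 1.08e-06). MDM2, a ubiquitin ligase, had means of 54.7 and 32.3 TPM (-0.75, adjusted p = 4.58e-04). BTG2, a growth inhibitor, measured 12.7, 13.2 and 12.6 TPM against 3.57, 2.99 and 3.65 TPM. The lines did not overlap for any of the 3, nor for 73.8% of all tested genes.

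Others were higher in HCT15. GDF15, a secreted stress hormone, measured 57.6, 66.1 and 56.5 TPM against 345, 282 and 320.4 TPM, and SESN2, a sensor of amino acid stress, 3.69, 3.36 and 3.25 TPM against 26.8, 25.7 and 25.8 TPM. The death gene BBC3 (PUMA) had means of 6.59 and 34.5 TPM and the death receptor TNFRSF10B of 36.98 and 94.2 TPM. BAX, an effector of apoptosis, had means of 53.9 and 52.04 TPM (adjusted p = 0.69).

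**Figure D3:**
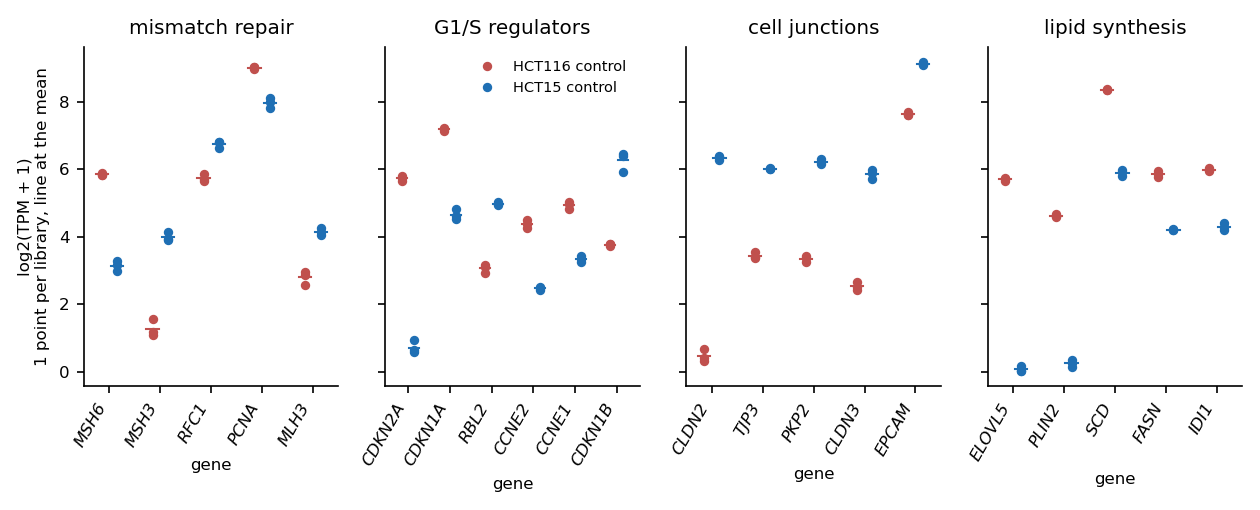
Levels in 4 gene lists, for up to 6 members each, taken in order of p, as log2(TPM + 1) with 1 point per control library and a line at the mean of 3 libraries; red is HCT116 and blue is HCT15. The mismatch repair and G1/S panels hold genes higher in either line. The lines do not overlap for any gene shown, nor for 73.8% of all tested genes, and the order of p favours such genes.

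The cell cycle lists were lower in HCT15. Of 24 tested G1/S regulators 12 (50%) were lower and 4 (16.7%) higher, with a median 0.69 below that of all genes. CDKN2A, which encodes the p16 and p14ARF tumour suppressors, measured 52.4, 49.5 and 54.6 TPM in HCT116 and 0.48, 0.55 and 0.92 TPM in HCT15 (log2 difference -5.02, SE 0.119, adjusted p = 2.94e-07). The inhibitor CDKN1B (p27) went the other way, at 12.1, 12.8 and 12.8 TPM against 82.7, 59.8 and 86.7 TPM. The cyclins CCNE1 and CCNE2 had means of 29.5 and 19.7 TPM in HCT116 and of 9.09 and 4.53 TPM in HCT15.

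Of 44 genes of S phase and mitosis 21 (47.7%) were lower and 9 (20.5%) higher, with a median 0.42 below that of all genes and 0.23 below it with quantile normalization. The nuclease FEN1, which trims replication flaps, had means of 124 and 33.8 TPM. TOP2A, a topoisomerase of dividing cells, was among the genes that were higher, at 69.1, 69.02 and 72.8 TPM against 215, 223 and 297 TPM. The growth rates of the cultures are not given in the labels.

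Genes of epithelial cell junctions were on balance higher in HCT15. Of 39 tested cell junction genes 26 (66.7%) were higher and 4 (10.3%) lower, with a median 0.65 above that of all genes. CDH1, E-cadherin, the main adhesion molecule between epithelial cells, measured 9.33, 6.22 and 5.37 TPM in HCT116 and 73.8, 71.9 and 74.03 TPM in HCT15 (log2 difference 3.25, SE 0.172, adjusted p = 7.16e-06). The tight junction gene CLDN2 measured 0.31, 0.24 and 0.59 TPM against 81.9, 76.00 and 80.7 TPM. The desmosomal protein PKP2 had means of 9.16 and 73.8 TPM. ESRP1, a splicing factor of epithelia, was lower, with means of 60.04 and 34.9 TPM.

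Mesenchymal and matrix genes went both ways, with 13 of 28 (46.4%) higher in HCT15 and 12 (42.9%) lower. Among the 19 with a mean of 1 TPM or more in both lines 11 (57.9%) were higher and 5 (26.3%) lower. Over all tested genes of that kind the shares were 43.2% and 22.5%. The median of the 19 lay 0.37 above that of all such genes. COL4A2, of the basement membrane, measured 0.05, 0.02 and 0.01 TPM against 30.8, 24.5 and 29.8 TPM. COL6A2 showed the reverse, at 11.6, 14.04 and 12.5 TPM against 0, 0.05 and 0 TPM. S100A4, CAV1 and AXL were lower, with means of 115, 166 and 5.72 TPM in HCT116 and of 11.5, 33.1 and 0.327 TPM in HCT15. VIM, vimentin, was low in both lines, with means of 3.18 and 0.747 TPM.

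Of 17 tested intestinal identity factors 14 (82.4%) were higher in HCT15 and 1 (5.88%) lower, with a median 1.22 above that of all genes, and the count was 12 and 1 among the 15 with 1 TPM or more in both lines. KLF5, a factor of proliferating crypt cells, measured 7.86, 9.37 and 9.39 TPM in HCT116 and 57.3, 74.3 and 65.3 TPM in HCT15. CDX2, which specifies intestinal fate, had means of 5.85 ± 0.249 TPM (SD, n = 3) and 29.2 ± 5.82 TPM (log2 difference 2.12, adjusted p = 2.31e-05 by limma). FOXA1, GATA6 and EHF were higher too, with log2 differences of 2.72, 1.91 and 1.93. PPARG, a lipid-sensing receptor, was the exception at 31.3, 32.2 and 30.6 TPM against 2.00, 2.38 and 2.27 TPM. A further 11 of the 28 listed factors were not tested because both lines were low, CDX1 among them.

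The genes of the mature enterocyte did not follow the factors. Of 44 listed only 12 passed the filter on low values, 4 (33.3%) higher in HCT15 and 8 (66.7%) lower. Their median lay 1.03 below that of all genes. Among the 8 with a mean of 1 TPM or more in both lines 2 were higher and 6 lower. VIL1, villin of the microvillus core, was among the higher genes of the list. It measured 0.37, 0.55 and 0.45 TPM in HCT116 and 89.6, 57.8 and 97.7 TPM in HCT15. EZR, ezrin, had means of 562 and 173 TPM, and the keratin KRT20 of 1.27 and 0.0233 TPM. Of 18 tested genes of mucins and fucosylation 11 (61.1%) were higher and 4 (22.2%) lower. AGR2, a secretory cell chaperone, measured 0, 0 and 0.03 TPM against 23.4, 21.1 and 21.02 TPM, and the fucosyltransferases FUT1 and FUT3 had log2 differences of 3.71 and 3.42.

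The list of acute phase genes, NF-kB targets and chemokines stood almost wholly on the side of HCT15: 35 of 37 tested members (94.6%) were higher in HCT15 and 1 (2.7%), TNFAIP2, was lower, with a median 2.03 above that of all genes. For 20 of the 37 the mean was under 1 TPM in 1 line, and such genes had to differ to be tested. Among the other 17 members 15 were higher and 1 lower, with a median 1.25 above that of all genes of that kind. ICAM1, an adhesion receptor for leukocytes, measured 2.83, 2.69 and 3.03 TPM in HCT116 and 64.4, 63.4 and 63.7 TPM in HCT15 (log2 difference 4.07, SE 0.071, adjusted p = 1.07e-07). NFKBIA, the inhibitor that NF-kB induces against itself, measured 15.4, 14.01 and 14.7 TPM against 180.3, 153 and 181 TPM. The neutrophil chemokine CXCL8 measured 0.41, 0.42 and 0.65 TPM against 30.5, 28.6 and 31.8 TPM.

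CXCL5 was at 0 in HCT116 and measured 41.2, 34.00 and 38.3 TPM in HCT15. The subunits of NF-kB itself differed less: NFKB1 had means of 10.5 and 21.2 TPM and RELA of 17.4 and 27.5 TPM, a call that RELA lost with median-ratio scaling and quantile normalization. CD14, a coreceptor for bacterial lipopolysaccharide and a monocyte marker, was at 0, 0.05 and 0 TPM in HCT116 and at 6.75, 6.76 and 7.35 TPM in HCT15, while the leukocyte gene PTPRC was at 0 in both. The interleukins IL1A, IL1B and IL6 and the cytokine TNF were too low to be tested.

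Interferon-stimulated and antigen presentation genes were also more often higher. Of 34 tested interferon-stimulated genes 21 (61.8%) were higher and 6 (17.6%) lower, with a median 0.73 above that of all genes. MX1, an antiviral GTPase, measured 0.18, 0.22 and 0.23 TPM in HCT116 and 9.48, 10.2 and 8.84 TPM in HCT15, whereas ISG15 had means of 296 and 111 TPM and was lower. Of 28 antigen presentation genes 19 (67.9%) were higher and 7 (25%) lower. PSMB8, a subunit of the immunoproteasome, measured 0.15, 0.16 and 0 TPM against 58.1, 63.2 and 40.6 TPM. B2M, the light chain shared by class I molecules, had means of 627 and 755 TPM, a call that was lost with median-ratio scaling.

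Genes of drug handling differed gene by gene. ABCB1, the P-glycoprotein efflux pump, measured 3.14, 1.75 and 2.17 TPM in HCT116 and 106, 99.5 and 105 TPM in HCT15 (log2 difference 4.98, SE 0.149, adjusted p = 6.72e-07), a mean 44.02 times as high. ABCC2, a pump of conjugated drugs, showed the reverse at 29.7, 26.8 and 33.8 TPM against 0.33, 0.21 and 0.15 TPM. ABCG2 was low in both, with means of 1.73 and 0.947 TPM. Of 21 tested transporters 11 (52.4%) were higher and 6 (28.6%) lower, with a median 0.30 above that of all genes. TYMP, which activates fluoropyrimidine drugs, was lower at 0.86, 2.02 and 0.65 TPM against 13.1, 14.5 and 14.5 TPM.

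Genes of lipid synthesis leaned the other way from those of cell junctions. Of 41 genes of cholesterol and fatty acid synthesis 26 (63.4%) were lower in HCT15 and 4 (9.76%) higher, with a median 0.75 below that of all genes. ELOVL5, which lengthens polyunsaturated fatty acids, measured 49.04, 51.5 and 52.6 TPM in HCT116 and 0.02, 0.02 and 0.11 TPM in HCT15. SCD, which makes monounsaturated fatty acids, measured 325, 329 and 325 TPM against 58.8, 54.4 and 61.8 TPM. FASN, the fatty acid synthase, had means of 56.8 and 17.5 TPM and IDI1, of the isoprenoid steps of cholesterol synthesis, of 62.3 and 18.6 TPM. SREBF1, a regulator of the same programme, did not pass the test, with means of 22.9 and 20.8 TPM, but was called lower with median-ratio scaling and quantile normalization. PLIN2, the coat protein of lipid droplets, measured 24.4, 22.7 and 23.3 TPM against 0.1, 0.2 and 0.26 TPM.

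Of 77 cancer-testis and germline genes only 9 passed the filter, and 8 of these were lower in HCT15. All 8 were under 1 TPM on average in HCT15, so they could be tested only because HCT116 expressed them. PRAME measured 28.8, 27.2 and 30.00 TPM in HCT116 and 0.18, 0.36 and 0.24 TPM in HCT15. CSAG3 and MAGEA2 were at 0 in HCT15, with HCT116 means of 54.01 and 38.2 TPM. The ninth was CTCF, a general chromatin organiser that is not a germline gene, at means of 28.8 and 33.6 TPM. The other 68 listed genes were low in both lines.

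**Figure D4:**
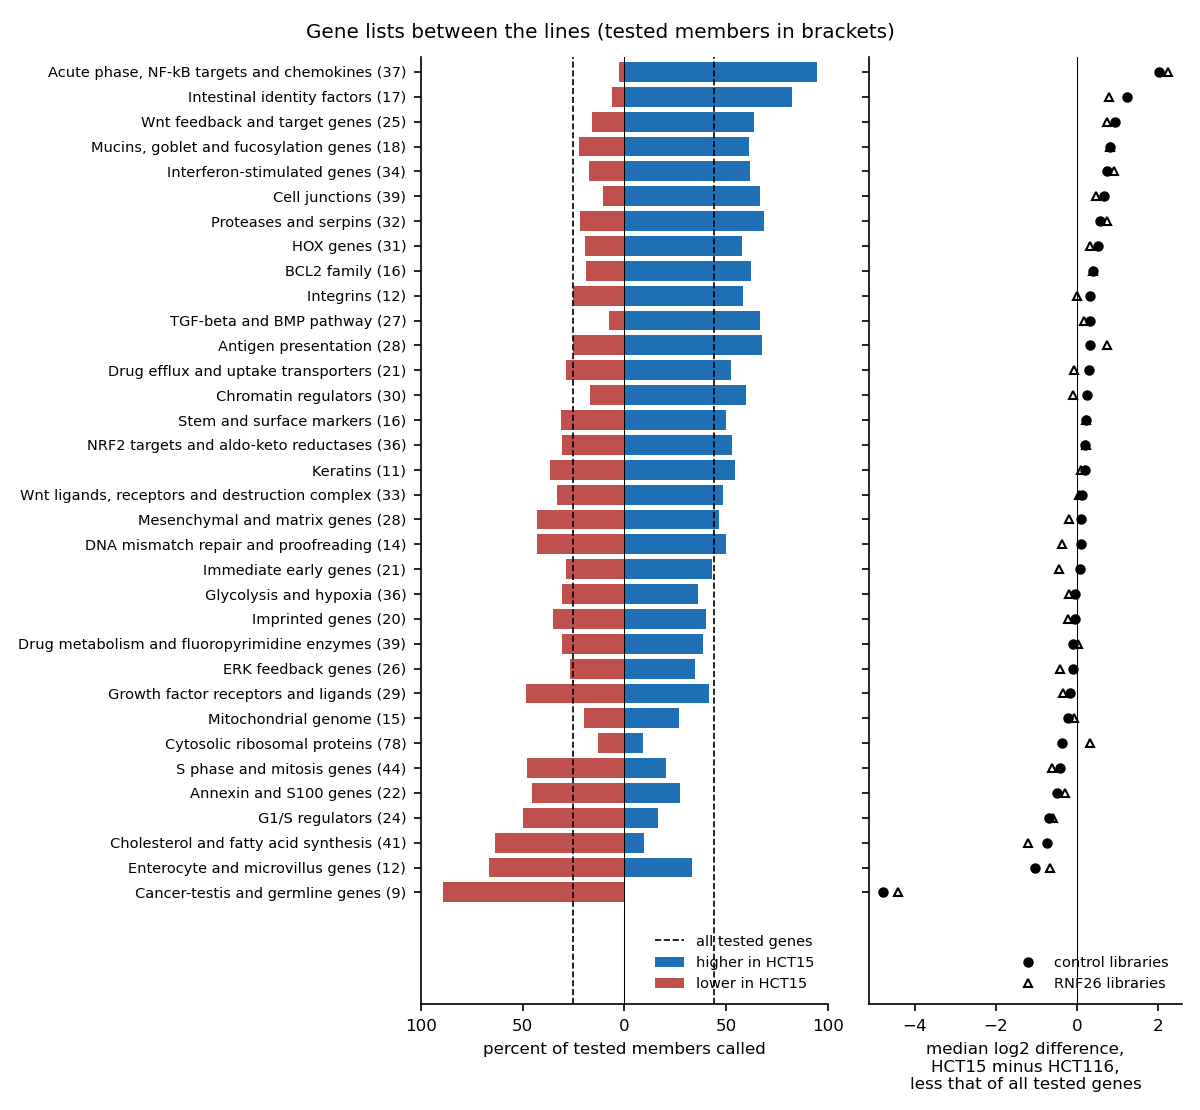
Left, percent of the tested members of each gene list that were called higher (blue, to the right) or lower (red, to the left) in HCT15, with dashed lines at the share of all tested genes, 44% and 25.4%. Right, the median log2 difference of the list relative to all tested genes in the control libraries (filled circles) and in the RNF26 libraries (open triangles), from 2.03 for the acute phase and NF-kB list to -4.78 for the cancer-testis list.

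The remaining lists lay at various distances from all tested genes. Growth factor receptors and ligands (12 higher, 14 lower of 29), genes of glycolysis and hypoxia (13 and 11 of 36), genes of drug metabolism (15 and 12 of 39) and imprinted genes (8 and 7 of 20) had medians within 0.17 of the background, although 48.3% of the growth factor list was lower. Of the growth factor list 22 genes had a mean of 1 TPM or more in both lines. Among these 12 were higher and 7 lower, with a median 0.24 above that of all such genes. For imprinted genes the same restriction left 8 higher and 2 lower of 15. HOX genes lay 0.51 and proteases and serpins 0.57 above it, and annexin and S100 genes 0.49 and ribosomal proteins 0.37 below it. With quantile normalization the ribosomal proteins lay 0.04 below it. AREG, a ligand of the EGF receptor, measured 288, 300.0 and 301 TPM in HCT116 and 46.8, 44.5 and 40.9 TPM in HCT15, while the receptor ERBB3 had means of 7.30 and 36.8 TPM. SLC2A3, a glucose transporter, measured 1.11, 1.11 and 1.19 TPM against 80.8, 75.6 and 71.2 TPM. Of 27 tested TGF-beta and BMP genes 18 (66.7%) were higher and 2 (7.41%) lower, and the median lay 0.32 above that of all genes.

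Among HOX genes, which record position along the body axis, 18 of 31 (58.1%) were higher in HCT15 and 6 (19.4%) lower. Of the 31, 13 had a mean under 1 TPM in 1 line. Among the other 18 genes 10 were higher and 1 lower, with a median 0.41 above that of all such genes. HOXB9 measured 5.95, 5.95 and 6.58 TPM against 118, 105 and 127 TPM, and HOXB6 had means of 11.02 and 64.4 TPM. HOXB4, which lies between HOXB3 and HOXB5 in the same cluster, measured 4.71, 3.65 and 4.86 TPM in HCT116 and was at 0 in HCT15, although HOXB3 had means of 4.23 and 45.1 TPM. Overlapping transcripts of this cluster could be counted to either gene.

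By chromosome arm, the 41 arms with 50 or more tested genes were compared by their median log2 difference relative to all tested genes. The lowest was 8q at -0.44 over 302 genes, followed by 3q at -0.25 over 396 and 10q at -0.18 over 413. On 8q 44% of the genes were lower in HCT15 and 27.2% higher, against 25.4% and 44% of all tested genes. The highest arms were 16p at 0.25 over 394 genes, 18p at 0.24 over 54 and 18q at 0.19 over 142. On 16p 56.3% of the genes were higher. The other 35 arms lay between -0.16 and 0.12.

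Centred on the mean of the lines, the 8q medians were 0.21, 0.21 and 0.22 in the HCT116 controls and -0.22, -0.22 and -0.18 in the HCT15 controls. For 16p they were -0.13, -0.09 and -0.15 against 0.13, 0.11 and 0.11. The lines did not overlap on either arm, but both arms were picked as extremes from these same libraries. Some arms with small medians, such as 14q at 0.05 and 3p at 0.10, did not overlap either. A median of 0.44 is small beside the spread of single genes on 8q, whose quartiles of the relative difference were -1.04 and 0.15. The values of 18p rested on few genes: without the second HCT116 library its median was 0.13.

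**Figure D5:**
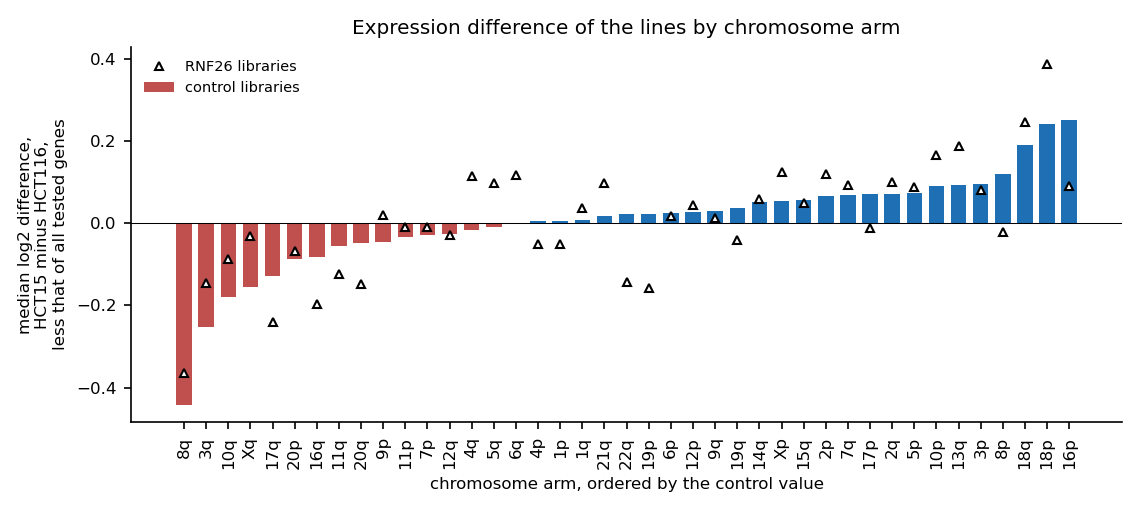
Median log2 difference between HCT15 and HCT116 for each chromosome arm, less that of all tested genes, in the control libraries (bars; red where HCT15 is lower, blue where it is higher) and in the RNF26 libraries (open triangles). The bars run from -0.44 on 8q to 0.25 on 16p, and the triangle has the sign of the bar on 30 of the 41 arms.

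Windows of 10 Mb, taken after the arm values were seen, placed part of these differences within the arms. Every window of 8q with 20 or more genes was negative, from -0.31 to -0.74. On 10q the windows from 100 to 130 Mb were at -0.71, -0.51 and -0.44, the window from 90 Mb was at -0.21 and those before it lay between -0.05 and 0.18. On 17q the windows from 50 Mb on were at -0.43, -0.32, -0.34 and -0.39, whereas the window from 30 to 40 Mb was at 0.32, so the arm as a whole was near the others at -0.13. On 3q the 4 windows from 140 to 180 Mb were at -0.56, -0.64, -0.50 and -0.56 and the window from 190 Mb was at 0.04. In the RNF26 libraries the arm medians were -0.36 on 8q, -0.15 on 3q, -0.09 on 10q, 0.09 on 16p, 0.39 on 18p and 0.25 on 18q, so 3q, 10q and 16p lay nearer to 0 than in the controls. On 16p 38.1% of the genes were higher there, against 56.3% in the controls. The same libraries gave -0.75, -0.45 and -0.17 for the 10q windows and -0.46, -0.32, -0.47 and -0.66 for those of 17q.

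The genes of the outlying arms with the smallest p in the direction of their arm were as follows. On 8q TRIB1, a pseudokinase, measured 48.02, 51.05 and 47.3 TPM in HCT116 and 4.67, 3.72 and 4.27 TPM in HCT15, and PDP1, which activates pyruvate dehydrogenase, 398, 389.7 and 409 TPM against 42.5, 42.2 and 52.9 TPM. Both differences, -3.26 and -3.10, were well beyond the median of the arm. MYC, on the same arm, was not called. On 3q TFRC, the transferrin receptor, had means of 124 and 15.96 TPM, and on 10q BNIP3, a mitophagy receptor, of 54.5 and 0.96 TPM. On 16p the protease PRSS8 had means of 8.46 and 69.8 TPM. The 18p genes THOC1, SPIRE1 and CHMP1B had log2 differences of 1.57, 1.39 and 1.20, and the 18q genes MYO5B, LMAN1 and NEDD4L of 1.87, 1.67 and 1.49.

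The same contrast in the cells overexpressing RNF26 used 6 other libraries. There 5069 genes (34.8%) were higher in HCT15 and 5085 (35%) lower, and the median of all tested genes differed by 0.003. Of the genes called higher in the controls 4497 were called higher again, which is 70.3% of the control list and 88.7% of the RNF26 list. Of those called lower 3408 were called lower again, 92.1% and 67.0% of the lists. Genes past 2-fold in the controls were called the same way again more often, 2469 of 2638 higher (93.6%) and 1485 of 1532 lower (96.9%). The second call was counted at any size of the difference. Opposite calls were made for 182 genes that were higher in the controls and for 8 that were lower.

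The line difference itself differed between control and overexpressing cells for 3285 genes (22.6%) by limma, of which 282 had a larger and 3003 a smaller value in the overexpressing cells. These counts moved with the scaling, to 952 and 1199 with median-ratio scaling. Without the third HCT15 control they were 260 and 2802, and without the second 631 and 3296. Among the 39 named genes compared, LCN2 had the largest gain, with means of 0.727 TPM in HCT116 and 940.2 TPM in HCT15 under RNF26, a line difference 1.40 larger than in the controls. CLDN2 had the largest loss among those called, with a mean of 35.3 TPM in HCT15 under RNF26. The departure of RNY1 was further from 0, at -1.24, but was not called (adjusted p = 0.0689 by limma).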

How the data were processed

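RNA from HCT116 and HCT15 control and RNF26-overexpressing cells was extracted with TRIzol, poly(A)-selected and sequenced from both ends with a stranded kit, per the labels' protocols. The authors deposited 1 table of TPM values, and fastp, HISAT2, StringTie, RSEM and the build GRCh38 are named in the submitters' processing notes; the sources used here give neither their versions and roles nor the strand setting. Overlapping, antisense and near-identical genes are therefore uncertain. TPM keeps no depth, so no count model was used.

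From these values log2(TPM + 1) was compared between the 6 control libraries with limma 3.58.1 in R 4.3.3 (moderated variance with a trend, Benjamini-Hochberg adjustment), over the 14547 genes at 1 TPM or more in at least 3 libraries. Of 63036 rows 62697 had a symbol and 58279 a position. A further comparison, of the line difference between control and RNF26 libraries, was fitted over all 12. The script was checked on simulated data. Alternatives were other pseudocounts, filters and scalings, leaving out each library and a replicate block.

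Members and gene lists were chosen with earlier results of these data known. Genes were named by rule: the 12 largest rises and falls at 5 TPM or more, up to 6 members per list with the smallest p plus genes with a known allele, 8 line-restricted genes per line, and up to 3 genes of each of the 3 highest and 3 lowest arms. Other named genes, such as AXIN2, CDH1, CDX2, MYC, ISG15, B2M, NNT, SCCPDH and HOXB3, were chosen after their values were seen. Y-linked genes, XIST and some other genes and lists that the rule names are not reported here.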

Additional observations from a re-analysis of the deposited data

Results flagged for a closer look

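For 12 of the 39 named genes compared, the log2 difference between the lines in the RNF26 libraries departed from that in the controls by limma's test of the interaction at an adjusted p under 0.05. The departure was positive for LCN2 (1.40), TXNIP (0.86) and TFRC (0.54). It was negative for CLDN2 (-1.18), IGFBP4 (-1.03), NEDD4L (-0.96), LTB (-0.72), PRSS8 (-0.63), TRIB1 (-0.49), SPIRE1 (-0.46), PDP1 (-0.43) and MYO5B (-0.41). Over all tested genes 22.6% departed, and the median departure was itself -0.20, so the smaller negative values lie near that of all genes.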

How the results depend on the processing

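Of 284 genes recomputed 278 were called, most of them chosen for a small p; 270 kept the call in every setting run and none of the 278 changed sign. The 8 that lost it in some setting were MT-ND4L, MT-CO3, MT-ATP6, RPL24, B2M, RELA, KRT8 and ABCG2. Of the 6 not called, MYC, SREBF1 and CTCF were called in some setting, and APC, CCND1 and BAX changed sign. The APC difference was -0.000817 with median-ratio scaling, -0.18 with quantile normalization and -0.0603 to 0.36 with 1 library left out, that of CCND1 -0.0921 with median-ratio scaling, and that of BAX -0.23 to 0.0900 with 1 library left out. Genes outside the naming rule were added to these settings after their values were seen. Of 109 list medians compared, 17 moved by more than 1 SD and 1, glycolysis and hypoxia, changed sign. With a pseudocount of 5 the genes past 2-fold were 1159 higher and 712 lower, and with a filter of 5 TPM 937 were lower. The line effect that differed between control and RNF26 libraries counted 952 higher and 1199 lower with median-ratio scaling, 882 and 1113 with quantile normalization, and 515 and 1915 without mitochondrial and ribosomal protein genes. Line-restricted genes of HCT15 numbered 61 with a bound of 0.1 TPM in the other line and 500 with 1 TPM in their own, and those of HCT116 96 and 574.

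Arm medians with a pseudocount of 0.1 were -0.49 on 8q, -0.30 on 3q and -0.21 on 10q. With a pseudocount of 5 they were -0.28, -0.17 and -0.11, and 0.18 on 16p, 0.19 on 18p and 0.10 on 18q. Without a filter they were -0.0471, -0.0379, -0.0196, 0.0670, 0.00909 and 0.0261 for these 6 arms, since most genes then lie near 0. With a filter of 5 TPM 8q was at -0.50 and 3q at -0.27. The 3q median was -0.27 with median-ratio scaling and without mitochondrial and ribosomal protein genes, and that of 10q was -0.14 with quantile normalization. The cause of the other shifts was not tested.

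Leaving out 1 library at a time gave 5828 to 6414 genes higher and 3309 to 3852 lower in the controls, 2593 to 2734 and 1472 to 1603 past 2-fold, and 4618 to 4895 and 4632 to 5140 in the RNF26 libraries. The interaction ranged from 133 (without HCT116 control replicate 3) to 631 (without HCT15 control replicate 2) higher and from 1925 (without HCT116 RNF26 replicate 2) to 3296 lower. Restricted genes ranged from 122 to 133 for HCT15 and from 162 to 173 for HCT116. Arm medians ranged from -0.44 to -0.41 on 8q, -0.27 to -0.24 on 3q, -0.19 to -0.15 on 10q, 0.23 to 0.27 on 16p, 0.13 to 0.27 on 18p and 0.13 to 0.23 on 18q.

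Replicates with the same number did not deviate together between the lines, with correlations from -0.075 to 0.0541. With a replicate block 6210 genes were higher and 3589 lower in the controls, 2632 and 1537 past 2-fold, 5032 and 5046 in the RNF26 libraries, and 256 and 2684 for the interaction. TPM gives no depth, so the counting error of low values is unknown.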

Other observations

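Some genes outside the described groups were also far apart in the control cells. RPL9, a ribosomal protein gene with close copies, measured 1074, 1061 and 1084 TPM in HCT116 and 31.6, 54.1 and 28.8 TPM in HCT15, while 61 of 78 ribosomal protein genes did not pass the test. SMARCA2, a chromatin remodelling ATPase, measured 3.87, 3.96 and 4.88 TPM in HCT116 and 44.03, 33.98 and 47.7 TPM in HCT15. H19, an imprinted noncoding RNA, measured 1.24, 2.43 and 0.53 TPM in HCT116 and 66.99, 39.3 and 63.0 TPM in HCT15. All 3 were chosen after their values were seen, and the lines did not overlap for any of them.

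Of 16 BCL2 family genes 10 (62.5%) were higher in HCT15 and 3 (18.8%) lower, and of 32 proteases and serpins 22 (68.8%) were higher and 7 (21.9%) lower. Annexin and S100 genes stood on the other side, with 6 of 22 (27.3%) higher and 10 (45.5%) lower.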
